A study of Mus musculus with 67 samples.

Results

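Levels of 8 genes of cholesterol synthesis, Hmgcs1, Pmvk, Mvd, Idi1, Fdps, Sqle, Cyp51 and Hsd17b7, were compared between 3 inbred mouse strains in liver and then in heart, kidney and aorta. They were taken by symbol from the array's annotation, as 8 of 19147 named genes, and 14 of 38385 probe sets carried 1 of these symbols. Sqle had 5 probe sets, Cyp51 and Hsd17b7 had 2 each, and the others had 1. The set had been named for synthesis and uptake of cholesterol, but each of the 8 genes encodes a synthesis enzyme and none an uptake protein. The mice were 12-week-old males from lines bred for high, normal or low blood pressure, kept on standard chow without treatment. They were hypertensive BPH/2J (systolic pressure 142 ± 5 mmHg), normotensive BPN/3J (94 ± 6 mmHg) and hypotensive BPL/1J (69 ± 1.7 mmHg), with the kind of error not stated, and are called BPH, BPN and BPL here. Each strain is 1 inbred line, so a difference between strains sets whole genomes against each other. Liver and heart each had 5 arrays per strain, kidney had 5 BPH, 5 BPN and 4 BPL arrays, and aorta had 9 BPH, 5 BPN and 9 BPL arrays, 67 in all.

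Cholesterol is built from acetyl-CoA through the mevalonate pathway. Hmgcs1 makes HMG-CoA, from which mevalonate is formed; mevalonate kinase, Pmvk and Mvd turn mevalonate into isopentenyl diphosphate; Idi1 isomerises it and Fdps joins the units into farnesyl diphosphate. Sqle then oxidises squalene, lanosterol synthase closes the rings, Cyp51 removes a methyl group from lanosterol, and Hsd17b7 reduces a keto group during the later demethylation. Liver is a main site of this synthesis, and the genes of the pathway are classical targets of the transcription factor SREBP-2, which is freed by SCAP when sterols are low and held back by INSIG proteins.

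Because these genes are known to share a regulator, the upstream sequences of the genes with the clearest strain differences are shown. The RefSeq promoter table (GRCm38.p6) held 7 windows for 6 of the 8 genes. The 250 bases before the annotated start are given 5′ to 3′ on the gene's strand for Hmgcs1 (chr13:119690101-119690350, plus strand), Mvd (chr8:122443423-122443672, minus strand), Cyp51 (chr5:4104698-4104947, minus strand), Idi1 (chr13:8885356-8885605, plus strand) and Hsd17b7 (chr1:169969206-169969455, minus strand). Capitals mark matches, on either strand, to a sterol regulatory element core (TCACCCCA), an NF-Y box (CCAAT) or an E-box (CACGTG).
Hmgcs1: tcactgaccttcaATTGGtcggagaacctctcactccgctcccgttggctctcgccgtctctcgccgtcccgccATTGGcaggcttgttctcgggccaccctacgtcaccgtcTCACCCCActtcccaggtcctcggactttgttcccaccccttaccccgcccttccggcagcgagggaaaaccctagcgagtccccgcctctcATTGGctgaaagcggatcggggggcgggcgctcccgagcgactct
Mvd: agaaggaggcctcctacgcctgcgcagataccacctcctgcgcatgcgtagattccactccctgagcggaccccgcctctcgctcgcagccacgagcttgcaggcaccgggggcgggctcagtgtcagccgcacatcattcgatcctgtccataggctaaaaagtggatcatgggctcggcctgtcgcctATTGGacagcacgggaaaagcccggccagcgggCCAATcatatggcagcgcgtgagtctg
Cyp51: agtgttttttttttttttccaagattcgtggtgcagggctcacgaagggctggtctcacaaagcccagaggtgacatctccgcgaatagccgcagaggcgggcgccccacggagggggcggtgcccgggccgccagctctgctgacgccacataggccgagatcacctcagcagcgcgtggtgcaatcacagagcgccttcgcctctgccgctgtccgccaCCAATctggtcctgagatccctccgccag
Idi1: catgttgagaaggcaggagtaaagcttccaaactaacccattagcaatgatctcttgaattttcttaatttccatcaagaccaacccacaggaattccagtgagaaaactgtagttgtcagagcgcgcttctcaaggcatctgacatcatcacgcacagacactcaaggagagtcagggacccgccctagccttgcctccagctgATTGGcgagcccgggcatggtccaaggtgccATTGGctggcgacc
Hsd17b7: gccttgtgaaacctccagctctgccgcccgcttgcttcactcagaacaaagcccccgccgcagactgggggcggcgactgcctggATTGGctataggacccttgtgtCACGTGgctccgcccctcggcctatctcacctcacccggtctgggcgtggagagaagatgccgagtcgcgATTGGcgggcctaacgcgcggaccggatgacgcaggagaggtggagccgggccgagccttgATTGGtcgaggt
The sterol regulatory element core was found in 1 of the 7 windows, that of Hmgcs1 at 137 bases before the start, and in 1.34% of 32851 mouse promoter windows. The NF-Y box was found in 6 of the 7 windows and in 33.8% of all windows; Hmgcs1 and Hsd17b7 held 3 each, Mvd and Idi1 2 each and Cyp51 1. The E-box was found in 1 of the 7 windows, that of Hsd17b7 at 143 bases before the start, and in 6.02% of all windows. These are letter matches in reference sequence, not measured sites, and the strains' own sequences were not used here.

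Values are log2 of the deposited intensity. Levels are compared only within 1 probe set and 1 tissue. Differences are given ± the standard error (SE) of the limma fit, and a gene is said to be higher or lower where the limma p adjusted over all 38385 probe sets (Benjamini-Hochberg) was below 0.05. A gene with several probe sets is read from the one of highest mean over the 4 tissues, which need not be the brightest within a tissue. The others are given where their calls differ from it. The 3 strain comparisons of a tissue share their arrays. Each tissue carried its own markers: all 4 measured hepatocyte markers in liver, 5 cardiomyocyte markers in heart, 3 tubule and podocyte markers in kidney and 5 smooth muscle markers in aorta lay above the array median in every strain. Markers of another tissue were high on a few heart, kidney and aorta arrays, which are described with those tissues. The design text gives 5 mice per strain, and no label says which mouse an array came from, so p-values cover only array-to-array spread and some of that may be technical.

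In liver, BPL had the higher level of 5 of the 8 genes against BPH and the lower level of none, where 3.09% of all probe sets were called higher and 2.68% lower. Hmgcs1, Cyp51, Idi1, Mvd and Pmvk were higher, by 0.35 to 0.77 on the log2 scale (1.28-fold to 1.71-fold), and in each of these 5 no BPL array overlapped a BPH array, as in 3.82% of all probe sets with BPL above. All 8 differences were positive, with a median of 0.40 beside 0.0024 over all named genes. The 8 genes were chosen with earlier results of these data known. Counts and shared signs over them, here and below, are therefore description and no independent test of the set. Against BPN, BPH was lower for 4 of the 8 (3.85% of probe sets were called lower) and higher for none (3.29%). BPL against BPN gave 2 higher (3.77%) and 1 lower (3.70%). The strain means put BPH lowest for 7 of the 8 genes, the exception being Idi1, and BPL highest for 5.

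Hmgcs1, the HMG-CoA synthase of the cytosol, showed the widest gap between BPL and BPH. The 5 BPH livers stood at 11.38, 11.03, 11.03, 11.08 and 11.07, the BPN livers at 11.67, 11.74, 11.90, 11.88 and 11.90, and the BPL livers at 12.06, 12.04, 11.76, 11.66 and 11.93. BPH lay below every array of both other strains, while BPN and BPL overlapped. BPL exceeded BPH by 0.77 ± 0.09 (1.71-fold, adjusted p = 8.37e-06), BPH was below BPN by 0.70 (log2 difference -0.70 ± 0.09, adjusted p = 3.05e-05), and BPL differed from BPN by 0.07 ± 0.09 (adjusted p = 0.768).

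Pmvk, phosphomevalonate kinase, was also lowest in BPH, with its highest mean in BPN. Its BPH values were 8.62, 8.67, 8.65, 8.53 and 8.80, its BPN values 8.87, 9.15, 9.28, 9.29 and 9.24, and its BPL values 9.05, 9.04, 9.04, 8.96 and 8.95. No BPH array reached either other strain, and 1 BPN array lay below all BPL arrays. BPL minus BPH was 0.35 ± 0.08 (adjusted p = 0.00818) and BPH minus BPN was -0.51 ± 0.08 (adjusted p = 0.000272), whereas BPL minus BPN was -0.16 ± 0.08 (adjusted p = 0.309).

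Mvd, the decarboxylase that yields isopentenyl diphosphate, separated all 3 strains. BPH livers stood at 7.39, 7.41, 7.63, 7.28 and 7.56, BPL livers at 8.18, 7.92, 7.97, 7.71 and 7.71, and BPN livers at 8.22, 8.64, 8.39, 8.27 and 8.22. No array of 1 strain overlapped another, and BPL lay between the other two. BPL minus BPH was 0.44 ± 0.10 (adjusted p = 0.0110), BPH minus BPN was -0.89 ± 0.10 (adjusted p = 7.62e-06) and BPL minus BPN was -0.45 ± 0.10 (adjusted p = 0.00772).

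Idi1, the isomerase that follows, was highest in BPL and did not pass the test between the other strains. Its values were 9.95, 9.65, 9.72, 9.77 and 9.69 in BPH, 9.41, 9.41, 9.76, 9.64 and 9.65 in BPN, and 10.34, 10.16, 10.16, 10.20 and 10.18 in BPL. Every BPL array exceeded every BPH and BPN array. BPL minus BPH was 0.45 ± 0.08 (adjusted p = 0.000963), BPL minus BPN was 0.63 ± 0.08 (1.55-fold, adjusted p = 2.32e-05) and BPH minus BPN was 0.18 ± 0.08 (adjusted p = 0.220).

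Fdps, farnesyl diphosphate synthase, was lower in BPH than in BPN, with BPL between them. BPH arrays read 11.81, 11.72, 11.69, 11.59 and 11.65, BPN arrays 11.86, 12.12, 12.02, 12.12 and 12.05, and BPL arrays 12.09, 11.91, 11.82, 11.68 and 11.86. BPH lay wholly below BPN, and BPL overlapped both. BPH minus BPN was -0.34 ± 0.08 (adjusted p = 0.00892), while BPL minus BPH was 0.18 ± 0.08 (adjusted p = 0.249) and BPL minus BPN was -0.16 ± 0.08 (adjusted p = 0.270).

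Sqle, squalene epoxidase, was read by 5 probe sets. On the main one BPH livers stood at 9.51, 9.23, 9.41, 9.37 and 9.40, BPN livers at 9.32, 9.47, 9.42, 9.42 and 9.30, and BPL livers at 9.85, 9.71, 9.61, 9.49 and 9.52. BPL lay above every BPN array and overlapped BPH, and neither difference passed the test: BPL minus BPN was 0.25 ± 0.08 (adjusted p = 0.0506) and BPL minus BPH was 0.25 ± 0.08 (adjusted p = 0.0579). The other 4 probe sets gave 0.18 to 0.26 for BPL minus BPH, none called, and 0.27 to 0.36 for BPL minus BPN, of which 3 were called. BPH and BPN differed by between -0.0028 and 0.14 over the 5 probe sets, with no call.

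Cyp51, lanosterol demethylase, was highest in BPL. Its values were 9.85, 9.59, 9.60, 9.61 and 9.60 in BPH, 9.56, 9.84, 10.02, 9.85 and 9.86 in BPN, and 10.34, 10.29, 10.17, 10.23 and 10.37 in BPL. Every BPL array exceeded every array of the other strains, and BPH and BPN overlapped. BPL minus BPH was 0.63 ± 0.08 (1.55-fold, adjusted p = 3.63e-05), BPL minus BPN was 0.45 ± 0.08 (adjusted p = 0.00111) and BPH minus BPN was -0.18 ± 0.08 (adjusted p = 0.251). The second Cyp51 probe set was also called for BPL minus BPH (0.43 ± 0.09, adjusted p = 0.00382), but not for BPL minus BPN (0.15 ± 0.09, adjusted p = 0.409).

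Hsd17b7, the sterol ketoreductase, gave different calls by probe set. On the main one BPH livers stood at 9.81, 9.54, 9.59, 9.68 and 9.64, BPN livers at 9.74, 9.82, 9.84, 10.06 and 9.98, and BPL livers at 10.13, 10.02, 9.74, 9.82 and 9.81. The strains overlapped, and BPL minus BPH was 0.25 ± 0.08 (adjusted p = 0.104) and BPH minus BPN -0.24 ± 0.08 (adjusted p = 0.117). On the second probe set BPH did not overlap either strain: BPL minus BPH was 0.42 ± 0.09 (adjusted p = 0.00647) and BPH minus BPN was -0.47 ± 0.09 (adjusted p = 0.00266).

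**Figure D1:**
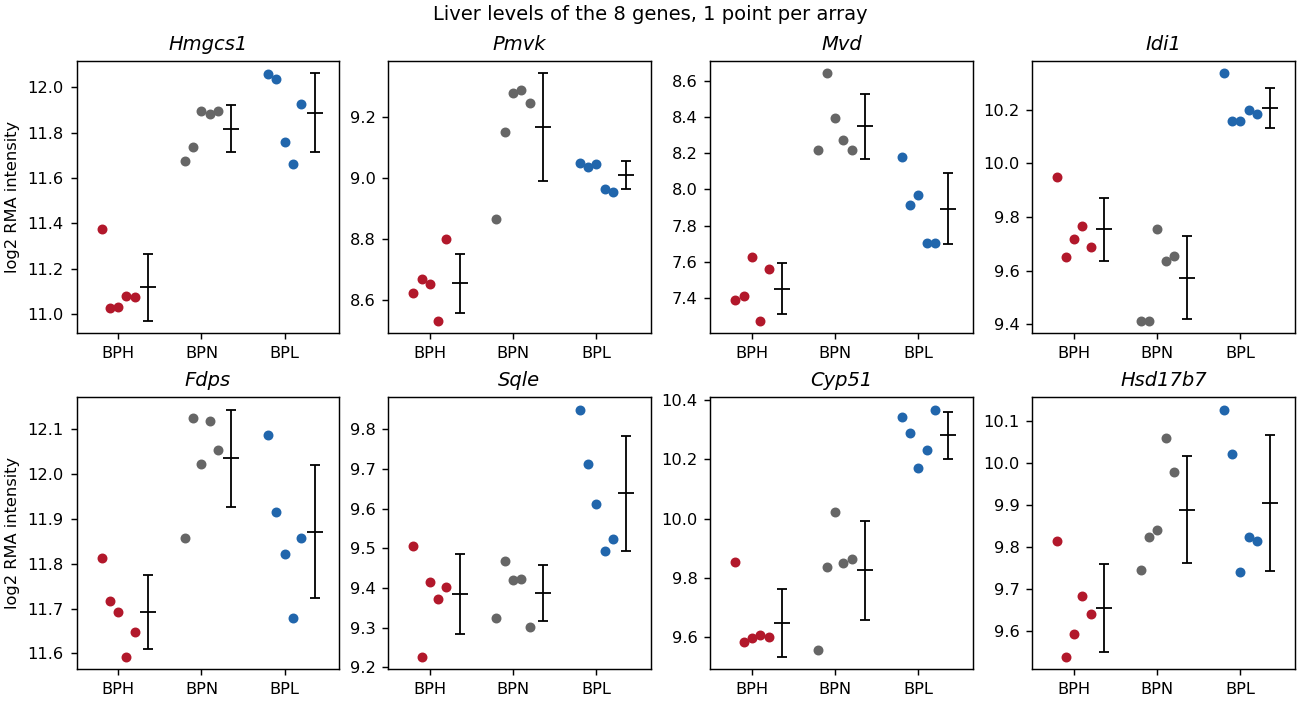
Log2 RMA intensity (vertical axes, each with its own range and not starting at 0) of the 8 genes in liver, 1 point per array, 5 arrays per strain, with bars for the mean ± SD. BPH arrays lie below all BPL arrays for Hmgcs1, Pmvk, Mvd, Idi1 and Cyp51, and BPL lies above both other strains for Idi1 and Cyp51.

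The rest of the pathway was read from 21 other genes, 10 of 15 listed synthesis genes and 11 of 15 listed uptake and regulation genes; the other listed genes were not analysed here. In liver 8 of the 21 were higher in BPL than in BPH (3.09% of probe sets) and none was lower (2.68%), with a median of 0.23. Of the synthesis enzymes, 6 of 10 were higher and all 10 differences were positive. Nsdhl, the sterol dehydrogenase that acts before Hsd17b7, differed by 0.61 ± 0.11 (adjusted p = 0.000973). Lss, lanosterol synthase, differed by 0.50 ± 0.11 (adjusted p = 0.00571), Mvk, mevalonate kinase, by 0.50 ± 0.08 (adjusted p = 0.000466) and Msmo1, the sterol methyl oxidase, by 0.37 ± 0.07 (adjusted p = 0.00199). Of the uptake and regulation genes 2 of 11 were higher, Srebf2, which encodes SREBP-2 (0.39 ± 0.08, adjusted p = 0.00531), and Scap, its escort (0.25 ± 0.06, adjusted p = 0.0206), while Insig1, the SREBP retention protein, did not pass (-0.19, adjusted p = 0.299). The Scap call was lost without BPH replicate 3, BPL replicate 2 or BPL replicate 5 (highest adjusted p = 0.0625).

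Between BPH and BPN, where 4 of the 8 genes were lower, the 21 others were called about as often as all probe sets (3.85% lower, 3.29% higher). The calls were 1 lower, Sc5d, sterol C5 desaturase (-0.36 ± 0.09, adjusted p = 0.0196), and 1 higher, Scarb1, the HDL receptor (0.63 ± 0.08, adjusted p = 4.42e-05). BPL against BPN gave 9 higher (3.77% of probe sets) and 1 lower (3.70%) of 21. Scarb1 was higher by 0.86 ± 0.08 (adjusted p = 7.46e-07), Nsdhl by 0.57 ± 0.11 (adjusted p = 0.00167), Msmo1 by 0.51 ± 0.07 (adjusted p = 6.46e-05) and Npc1, which exports cholesterol from lysosomes, by 0.48 ± 0.08 (adjusted p = 0.000590). Insig1 was lower by 0.30 on the log2 scale (difference -0.30 ± 0.09, adjusted p = 0.0445), but for 8 of the 15 arrays its removal alone ended this call. The Sc5d call was lost without BPH replicate 1 or BPN replicate 4. None of 5 measured sterol export and esterification genes was called in any of the 3 liver comparisons.

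**Figure D2:**
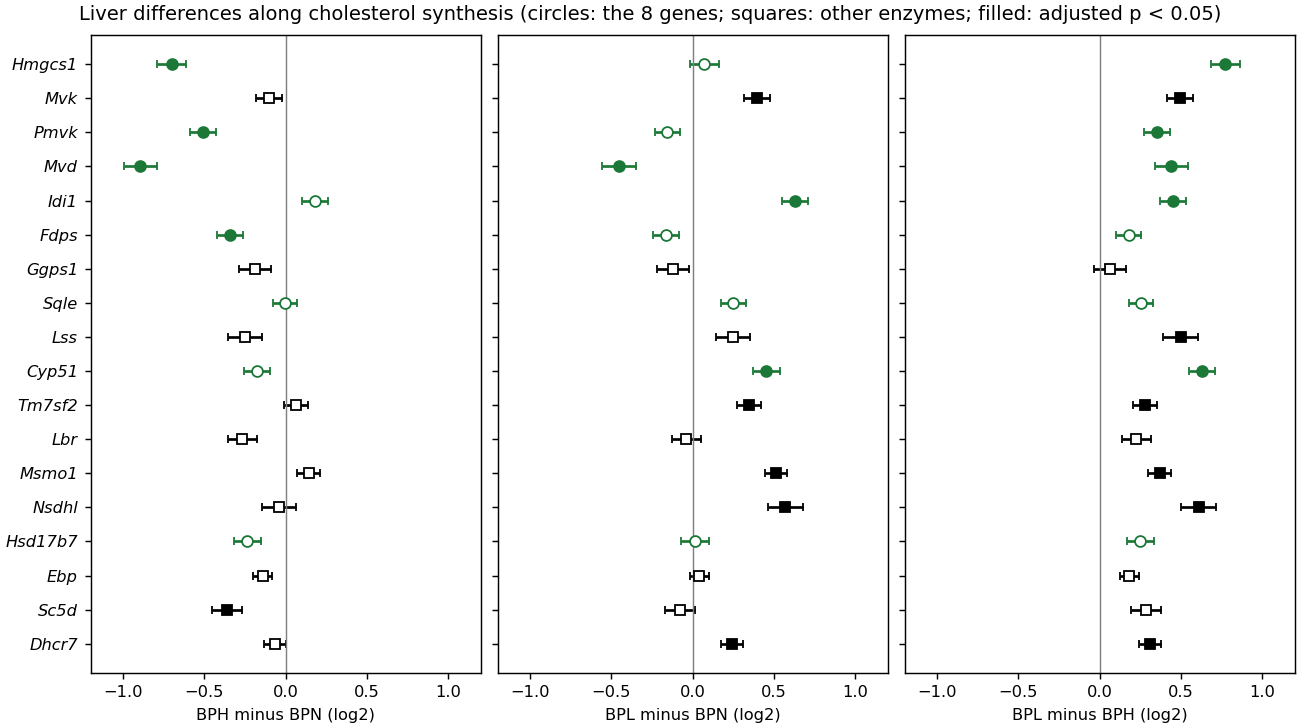
Liver differences in log2 units (horizontal axes) along cholesterol synthesis, top to bottom in pathway order, for 3 strain comparisons; circles are the 8 genes, squares the other 10 measured enzymes, bars the standard error, and filled symbols passed an adjusted p of 0.05. Every point of BPL minus BPH lies above 0, whereas in BPH minus BPN the 4 filled circles are Hmgcs1, Pmvk, Mvd and Fdps.

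Other gene groups moved in the same livers. Of 12 fatty acid synthesis genes 8 were lower in BPH than in BPN (3.85% of probe sets) and 6 were lower in BPL than in BPN (3.70%), with none higher in either. Between BPL and BPH 1 was higher and 1 lower, where 3.09% of probe sets were higher and 2.68% lower, so no shift of the list can be read from these counts. Thrsp, a lipogenic regulator, stood at 11.2 ± 0.36 in BPH, 12.3 ± 0.39 in BPN and 10.3 ± 0.39 in BPL (SD, n = 5). Fasn, fatty acid synthase, was lower in BPH than in BPN (-0.86 ± 0.16, adjusted p = 0.00176) and lower in BPL than in BPN (-1.09 ± 0.16, adjusted p = 0.000153). Of 9 genes that respond to fasting 3 were higher in BPL than in BPH (3.09% of probe sets), Angptl4 (1.35 ± 0.22, adjusted p = 0.000552), Pdk4 (0.78 ± 0.16, adjusted p = 0.00347) and Fgf21 (0.70 ± 0.17, adjusted p = 0.0129). Only 5 of the 9 differences were positive. In BPH against BPN 2 of the 9 were higher (3.29%), Pck1 (0.87 ± 0.23) and Ppargc1a (0.64 ± 0.14). Another 2 were lower (3.85%), Fgf21 (-0.94 ± 0.17) and Pdk4 (-0.56 ± 0.16), so the list did not move in 1 direction. Of 13 clock genes, with 1 call in each direction between BPL and BPH and again no shift to be read, Nr1d1 was higher (1.10 ± 0.20, adjusted p = 0.00160) and Cry1 lower (-0.54 ± 0.15, adjusted p = 0.0408, lost without any 1 of 8 arrays). The 6 macrophage and Kupffer markers were lower in BPH than in BPN in 6 of 6 (3.85% of probe sets). They were lower in BPL than in BPN in 5 of 6 (3.70%) and higher in BPL than in BPH in 2 of 6 (3.09%). Their summed log2 values were 38.8 to 40.5 in BPH, 40.2 to 41.3 in BPL and 42.5 to 45.1 in BPN. The strain mean lay below the array median for 1 of the 6 markers in BPH, 1 in BPL and 0 in BPN. The 4 hepatocyte markers summed to 50.1 to 50.6 in BPH, 49.7 to 50.5 in BPL and 50.4 to 51.1 in BPN. The part of these groups in the differences of the 8 genes was not tested, and in whole tissue fewer cells of a type and less RNA per cell cannot be told apart.

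Within a strain the 8 genes tended to vary together from liver to liver. After each strain's mean was subtracted, 27 of the 28 pairs of the 8 genes had a positive Pearson correlation over 15 livers, with a median of 0.53. The same count was 28 of 28 in kidney (median 0.56, 14 arrays), 27 of 28 in aorta (median 0.45, 23 arrays) and 25 of 28 in heart (median 0.26, 15 arrays). The values of a pair come from the same arrays and share their scaling. No like count for other genes was set beside these, so they do not show a trait particular to the 8 genes. With the strain means removed, the genes whose liver values ran closest to the mean of the 8 were Col9a1 (r = 0.91), Msmo1 (0.89), Dscam (0.87), Plekhn1 (0.86) and Aars (0.83), of 19139 genes compared; with the strain differences kept they were Rpl15 (0.94), Txnl4a (0.92), Serpina3n, Parp9 and Pdia6 (0.91 each).

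In heart Hsd17b7 was far higher in BPH than in the other strains, the largest strain difference of any of the 8 genes in the 4 tissues, and the other 7 genes passed no test against BPH. Between BPH and BPN 1 of the 8 was called (7.02% of probe sets), between BPL and BPH 1 (8.57%) and between BPL and BPN 1 (9.34%). Hsd17b7 stood at 9.20, 9.23, 8.88, 9.08 and 9.07 in BPH hearts, 5.93, 5.74, 5.87, 5.78 and 5.86 in BPN hearts, and 5.76, 5.59, 5.77, 5.83 and 5.50 in BPL hearts. The BPH arrays lay about 3 log2 units above all others, and BPN and BPL overlapped. BPH exceeded BPN by 3.26 ± 0.08 (9.57-fold, adjusted p = 2.99e-15), and BPL minus BPH was -3.40 ± 0.08 (BPH 10.59-fold over BPL, adjusted p = 1.42e-15). The second probe set gave 2.48 ± 0.11 for BPH minus BPN (adjusted p = 4.94e-11) and -2.31 ± 0.11 for BPL minus BPH (adjusted p = 1.06e-10).

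The size and direction seen in heart did not recur elsewhere. Hsd17b7 was lower in BPH than in BPN in kidney on both probe sets and in aorta on the main one only, and in liver its main probe set did not pass the test. Of the 3 named genes on each side of Hsd17b7 on chromosome 1, examined after its values were known, Rgs5, a regulator of G protein signalling, was higher in BPH than in BPN hearts (0.96 ± 0.08, adjusted p = 1.09e-07), as was the adjacent 3110045C21Rik (0.91 ± 0.11, adjusted p = 1.91e-05). Lmx1a, Ccdc190, Ddr2 and Uap1 were not called in heart. In kidney the same pair was also higher in BPH than in BPN, by 1.14 ± 0.10 for Rgs5 (adjusted p = 8.78e-07) and 1.32 ± 0.16 for 3110045C21Rik (adjusted p = 3.58e-05), while Hsd17b7 and Uap1 (-0.47 ± 0.08, adjusted p = 0.00111) were lower.

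**Figure D3:**
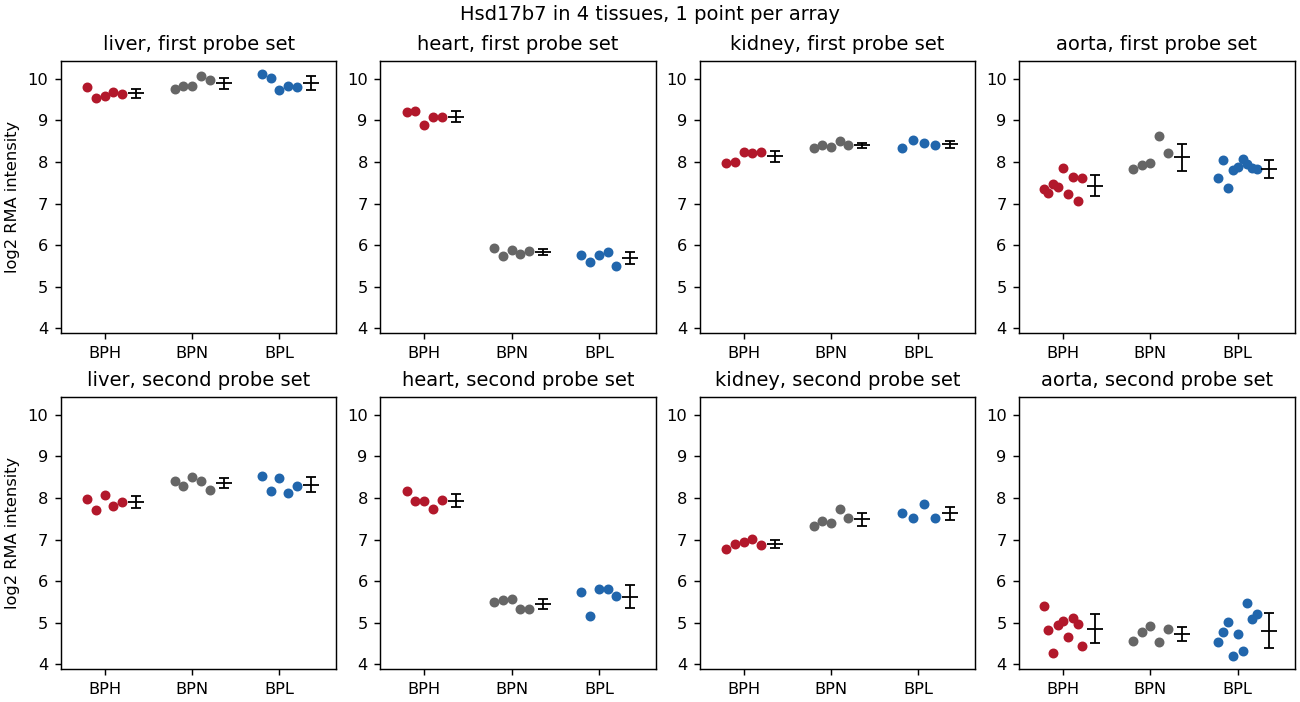
Hsd17b7 in 4 tissues as log2 RMA intensity (shared vertical range that does not start at 0), 1 point per array with mean ± SD, on its main probe set (top) and its second one (bottom). On both probe sets the 5 BPH hearts stand apart from the 10 other hearts; levels are to be compared within a panel only.

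Cyp51 was the other heart call, at 5.61, 5.73, 5.92, 5.73 and 5.73 in BPH, 5.57, 5.48, 5.68, 5.59 and 5.73 in BPN, and 5.67, 5.82, 5.91, 6.07 and 6.09 in BPL. BPL overlapped both other strains, and BPL minus BPN was 0.30 ± 0.08 (adjusted p = 0.0252), which did not pass after removal of 1 array for 5 of the 15 arrays. The second Cyp51 probe set gave 0.02 ± 0.08 for this comparison (adjusted p = 0.946). None of the 10 other synthesis enzymes was called between BPL and BPH hearts. Of 5 adipocyte markers 4 were higher in BPL than in BPH hearts (median 1.67), as were 3 of 5 smooth muscle markers (median 0.53). In this comparison 8.57% of probe sets were called in either direction. Between BPL and BPN hearts no adipocyte marker was called (median 0.95) and 1 of 5 smooth muscle markers was higher. The part of these markers in the heart differences was not tested.

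In kidney Cyp51, Idi1 and Sqle were higher in BPH than in BPN, and Hmgcs1 and Hsd17b7 were lower, where 3.66% of probe sets were called higher and 3.39% lower. BPL against BPH gave 1 higher (3.19% of probe sets) and 2 lower (3.14%), and BPL against BPN gave 1 higher (3.22%) and 2 lower (3.02%). By the strain means BPL was below BPH in kidney for 7 of the 8 genes, all but Hsd17b7, of which Cyp51 and Sqle were called; in liver BPL was above BPH for all 8. Adrenal cortex markers were high on 3 kidney arrays: their 7 log2 values summed to 49.9 and 53.6 in BPN replicates 4 and 5 and to 51.3 in BPL replicate 1, against 29.3 to 33.2 on the other 11, BPH arrays all at or below 30.4. The adrenal cortex is itself a site of cholesterol synthesis, so each kidney count is also given without these 3 arrays, a choice made after seeing the data.

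Cyp51 stood at 10.44, 10.33, 10.55, 10.45 and 10.32 in BPH kidneys, 9.61, 9.56, 9.77, 9.90 and 9.74 in BPN kidneys, and 9.84, 10.06, 9.92 and 9.84 in BPL kidneys. Every BPH array exceeded every other array. BPH minus BPN was 0.70 ± 0.08 (1.63-fold, adjusted p = 8.86e-06) and BPL minus BPH was -0.50 ± 0.08 (adjusted p = 0.000574), and the second probe set gave 0.51 ± 0.09 and -0.66 ± 0.09, both called.

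Sqle stood at 9.53, 9.67, 9.83, 9.52 and 9.68 in BPH, 8.72, 8.94, 9.20, 9.18 and 9.30 in BPN, and 9.18, 8.96, 9.05 and 8.93 in BPL. BPH again lay above every other array, and BPN and BPL overlapped. BPH minus BPN was 0.58 ± 0.10 (adjusted p = 0.00133) and BPL minus BPH was -0.62 ± 0.11 (adjusted p = 0.00138), and all 5 probe sets were called in both.

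Idi1 stood at 8.80, 8.79, 8.90, 8.89 and 8.75 in BPH, 7.84, 8.06, 8.16, 8.47 and 8.35 in BPN, and 8.55, 8.63, 8.75 and 8.78 in BPL. BPN lay below both other strains, which overlapped, and the 2 highest BPN values were those of the arrays with adrenal markers. BPH minus BPN was 0.65 ± 0.10 (adjusted p = 0.000368) and BPL minus BPN was 0.50 ± 0.10 (adjusted p = 0.00618).

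Hmgcs1 moved the other way. It stood at 10.87, 10.71, 11.004, 10.87 and 10.92 in BPH, 11.66, 11.75, 11.65, 11.82 and 11.84 in BPN, and 10.77, 10.74, 10.84 and 10.64 in BPL. BPN lay above every BPH and BPL array, with BPH minus BPN at -0.87 ± 0.07 (adjusted p = 2.01e-07), BPL minus BPN at -0.997 ± 0.07 (2.00-fold lower, adjusted p = 7.28e-08) and BPL minus BPH at -0.13 ± 0.07 (adjusted p = 0.399). Of the 3 named genes on each side of Hmgcs1 on chromosome 13, examined after its values were known, Tmem267 (-6.36 ± 0.09) and Zfp131 (-0.44 ± 0.08) were also lower in BPH than in BPN kidneys, as was Ccl28 (-1.13 ± 0.27), while Nim1k was higher (1.40 ± 0.21).

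Mvd was lower in BPL than in BPN kidneys (-0.33 ± 0.07, adjusted p = 0.0119), with arrays from 8.19 to 8.45 in BPL and from 8.53 to 8.75 in BPN. Hsd17b7 ran from 7.98 to 8.25 in BPH, 8.34 to 8.51 in BPN and 8.32 to 8.53 in BPL, so that BPH lay below both. BPH minus BPN was -0.26 ± 0.07 (adjusted p = 0.0303) and BPL minus BPH was 0.29 ± 0.07 (adjusted p = 0.0249). Pmvk and Fdps were not called in any kidney comparison, and their differences ran from -0.33 to -0.07. Without the 3 arrays with adrenal markers the calls were 3 for BPL against BPH (4.79% of probe sets), 4 for BPH against BPN (5.97%) and 3 for BPL against BPN (4.27%). On the main probe set, Hsd17b7 between BPH and BPN was the call lost (-0.23 ± 0.08, adjusted p = 0.142), while its second probe set was still called lower (-0.49 ± 0.09, adjusted p = 0.00521). Cyp51, Idi1 and Sqle exceeded BPN in BPH by 0.77, 0.80 and 0.69.

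In aorta the strain with the highest mean was BPN for 5 of the 8 genes, and BPL was lower than BPN for Cyp51, Idi1 and Sqle. BPL against BPN gave 1 higher (5.14% of probe sets) and 3 lower (5.20%), BPL against BPH gave 1 higher (5.36%) and BPH against BPN gave 1 lower (4.70%). In none of these calls were the strains' arrays without overlap. Cyp51 ran from 10.38 to 11.24 in BPH (median 10.96), from 10.20 to 10.82 in BPL (median 10.46), and stood at 10.58, 10.76, 11.15, 11.96 and 11.74 in BPN. BPL minus BPN was -0.75 ± 0.19 (adjusted p = 0.00934), and the 2 highest values of the tissue were those of BPN replicates 14 and 15. Without BPN replicate 14, which also had the lowest summed adipocyte markers (42.2 against 44.5 to 51.1), the adjusted p was 0.0536.

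Idi1 ran from 8.86 to 9.66 in BPH (median 9.22), from 8.63 to 9.43 in BPL (median 8.90), and stood at 9.26, 9.37, 9.70, 10.16 and 9.93 in BPN. BPL minus BPN was -0.73 ± 0.15 (adjusted p = 0.00140), a call kept without any 1 array. The highest BPL value was that of replicate 26, on which the 4 hepatocyte markers summed to 28.9, against 8.8 to 13.1 on the other aortas.

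Sqle ran from 6.44 to 7.35 in BPH (median 7.15), from 5.77 to 6.83 in BPL (median 6.53), and stood at 6.41, 6.88, 6.84, 8.20 and 7.42 in BPN. BPL minus BPN was -0.73 ± 0.23 (adjusted p = 0.0382), which did not pass after removal of 1 array for 6 of the 23 arrays, BPN replicates 14 and 15 among them (highest adjusted p = 0.184). Of the other 4 Sqle probe sets 1 was called lower in this comparison, and their differences ran from -0.79 to -0.51. Between BPL and BPH the main probe sets of Sqle (-0.50 ± 0.19, adjusted p = 0.101) and Cyp51 (-0.38 ± 0.16, adjusted p = 0.153) were not called. Another Sqle probe set (-1.04 ± 0.18, adjusted p = 0.000205) and the second Cyp51 probe set (-0.75 ± 0.20, adjusted p = 0.0157) were lower in BPL.

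Hsd17b7 ran from 7.05 to 7.86 in BPH (median 7.40), from 7.39 to 8.08 in BPL (median 7.86), and stood at 7.83, 7.94, 7.97, 8.63 and 8.21 in BPN. BPH minus BPN was -0.68 ± 0.14 (adjusted p = 0.00111) and BPL minus BPH was 0.40 ± 0.12 (adjusted p = 0.0221). The second probe set gave neither call and the opposite sign in both, at 0.13 ± 0.19 (adjusted p = 0.784) and -0.05 ± 0.16 (adjusted p = 0.916). Pmvk ran from 9.26 to 9.86 in BPH, 9.16 to 9.53 in BPN and 9.35 to 9.95 in BPL, with BPL minus BPN at 0.35 ± 0.11 (adjusted p = 0.0324). Hmgcs1, Mvd and Fdps were not called in any aorta comparison. BPH replicate 5 carried heart muscle markers (summed 46.8 against 31.9 to 39.4); without it and BPL replicate 26, a choice made after seeing the data, the Hsd17b7 difference between BPL and BPH (0.37 ± 0.12, adjusted p = 0.0592) and that of Pmvk between BPL and BPN (0.34 ± 0.11, adjusted p = 0.0589) were no longer called, leaving no main probe set called between BPL and BPH. One Sqle probe set (-1.09 ± 0.19, adjusted p = 0.000214) and the second Cyp51 probe set (-0.73 ± 0.22, adjusted p = 0.0351) were still lower in BPL. In that fit 10.2% of probe sets were called between BPL and BPH. With all arrays 6 of the 8 genes had an unadjusted limma p below 0.05 for this comparison, with differences in both directions. No share of all probe sets at that unadjusted threshold was set beside this count, so it shows no shift of the 8 genes.

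**Figure D4:**
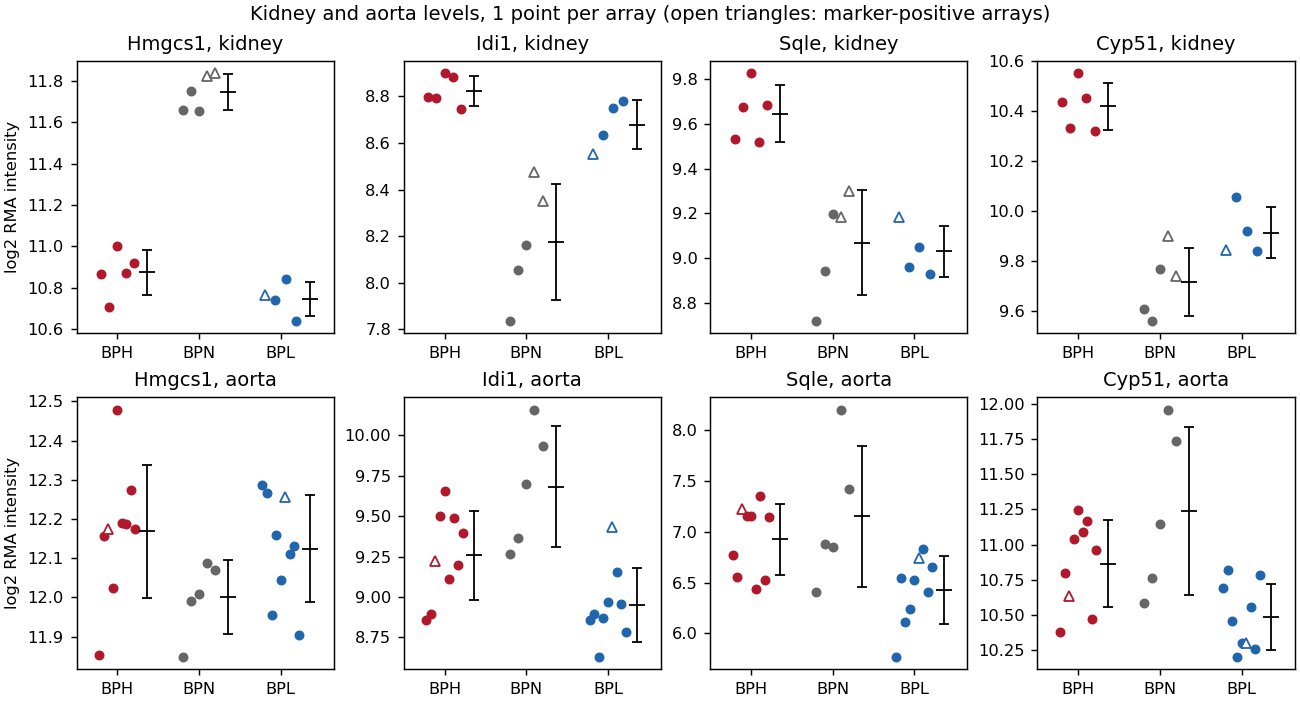
Hmgcs1, Idi1, Sqle and Cyp51 in kidney (top) and aorta (bottom) as log2 RMA intensity (vertical axes, each with its own range), 1 point per array with mean ± SD; open triangles are the 3 kidneys with adrenal markers and the 2 aortas with liver or heart markers. In kidney BPH lies above all other arrays for Sqle and Cyp51 and BPN above all others for Hmgcs1, and in aorta BPN holds the highest arrays for Idi1, Sqle and Cyp51.

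Whether the BPL minus BPH difference was itself another one in liver than elsewhere was tested in 1 limma fit of all 12 groups. As a signed value it was higher in liver than in kidney for 4 of the 8 genes (2.53% of probe sets were called). It was higher than in aorta for 5 (9.32%) and than in heart for 2 (3.24%), and lower in none. A higher signed value need not be a wider gap where the other tissue's difference is negative. Cyp51 differed by 1.13 ± 0.22 from kidney (0.63 in liver against -0.50, adjusted p = 0.000254) and by 1.01 ± 0.19 from aorta (adjusted p = 4.08e-05), but its difference from heart was not called (0.46 ± 0.21, adjusted p = 0.376). This fit treats arrays as independent, because no label ties arrays of different tissues to a mouse. Any pairing of tissues by mouse was therefore not modelled. The fit also gives a probe set 1 variance for all 12 groups. Cyp51 SDs were 0.08 to 0.18 in liver and heart but 0.24 to 0.60 in aorta. The SE against heart thus includes aorta spread, and the missing call does not show like differences in liver and heart. Hmgcs1 was called against all 3 tissues, by 0.69 ± 0.12 from heart (adjusted p = 5.73e-05), 0.90 ± 0.13 from kidney (adjusted p = 3.96e-07) and 0.82 ± 0.11 from aorta (adjusted p = 2.50e-08). Mvd (0.59 ± 0.17, adjusted p = 0.0342) and Pmvk (0.54 ± 0.15, adjusted p = 0.0354) were called against kidney only, and Idi1 (0.76 ± 0.16, adjusted p = 0.000333), Sqle (0.75 ± 0.22, adjusted p = 0.0164) and Fdps (0.50 ± 0.16, adjusted p = 0.0405) against aorta only. These are the main probe sets. Of the other 4 Sqle probe sets 1 was called against aorta. A missing call does not show like differences, and some lay just past the threshold. Against kidney, Sqle differed by 0.87 ± 0.26 (adjusted p = 0.0501) and Idi1 by 0.60 ± 0.19 (adjusted p = 0.0739). Mvd differed by 0.52 ± 0.16 from heart (adjusted p = 0.0550) and by 0.41 ± 0.14 from aorta (adjusted p = 0.0552). The Mvd and Pmvk calls each ended on removal of 1 array for 10 of 19 arrays, and that of Fdps for 15 of 28. The Hsd17b7 difference against heart was 3.66 ± 0.16 (adjusted p = 1.08e-27), from 0.25 in liver and -3.40 in heart. Its gap between the strains was thus the wider one in heart, and it was not called in liver. Aorta RNA was amplified and labelled by another protocol than the other tissues, so protocol and tissue cannot be told apart there.

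**Figure D5:**
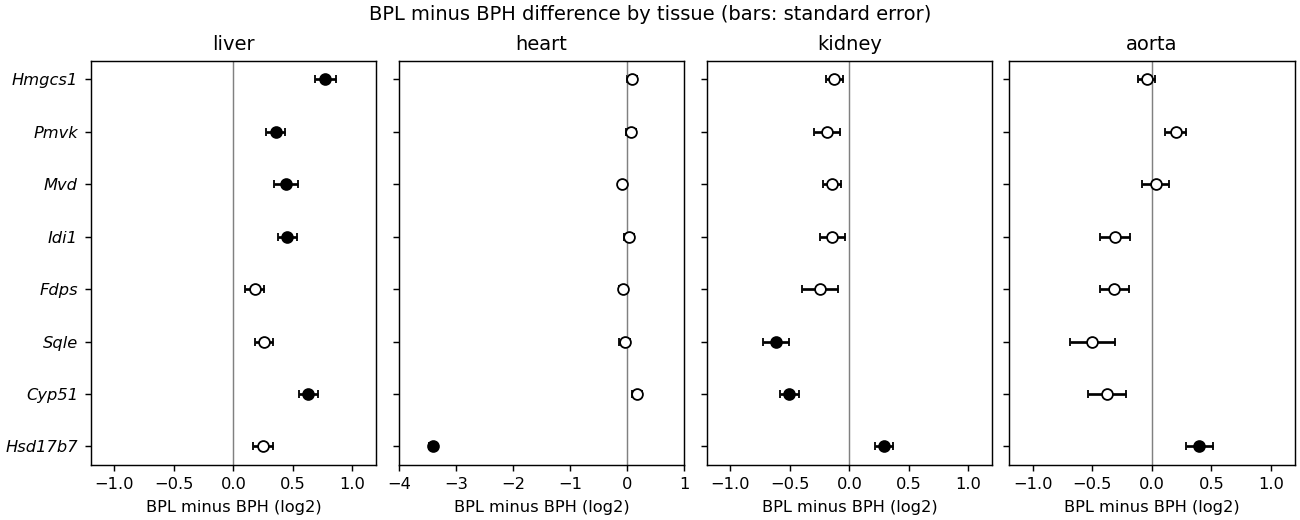
BPL minus BPH difference in log2 units (horizontal axes; the heart axis is wider) of the 8 genes in 4 tissues, with bars for the standard error and filled points for an adjusted p below 0.05. All 8 points lie above 0 in liver, the heart panel is set by Hsd17b7 at -3.40, and 7 of the 8 lie below 0 in kidney, of which Sqle and Cyp51 were called.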

How the data were processed

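Transcript levels were measured on 67 single-colour Merck/Affymetrix mouse arrays, 1 per sample. The deposited values are intensities per probe set, normalised by the authors with RMA, per the labels and the submitters' processing notes; RMA corrects background, sets arrays to a common distribution and summarises probes, so a difference in total transcript amount is removed. The values ran from 1.8 to 22648 and were read as linear, and log2 of the deposited values was taken with a pseudocount of 0. No detection calls, plates or scan dates were used, so batches could not be tested; the number of arrays limits the precision. Array medians were 13.6 to 14.4 in liver, 24.6 to 26.3 in heart, 29.8 to 31.5 in kidney and 25.3 to 26.6 in aorta, so levels were not compared between tissues.

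Genes were named from the platform annotation: 24478 probe sets had 1 symbol, 65 several, and 13842 were not listed. Models with 1 mean per strain were fitted within a tissue in limma 3.58.1 (lmFit, eBayes; R 4.3.3), and over all 12 groups for differences between tissues; the procedure was tested on simulated data first. Members and lists were chosen with earlier results of these data known, as were the promoter motifs. Named list genes were taken from the up to 4 called genes of largest difference per list and liver comparison, and not all of these are given. Srebf2 and Insig1 are given for BPL against BPH whatever their result, but not for every comparison. Alternatives were median centring, quantile normalisation, a pseudocount of 16, brighter probe sets only, trend and robust variance, array weights, the probe set of highest mean within the tissue, the replicate number as a block, the joint fit, and each array left out.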

Additional observations from a re-analysis of the deposited data

Results flagged for a closer look

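Dixon's test over the arrays of a group singled out 4 arrays in 96 groups of gene, tissue and strain, where chance alone singles out about 1 in 20. In liver, BPH replicate 1 stood apart for Hmgcs1 at 11.38 and for Cyp51 at 9.85, above the other BPH livers and below every BPL liver in both genes, and BPL replicate 1 stood apart for Idi1 at 10.34. In heart, BPL replicate 4 stood apart for Fdps at 7.71. That array also had the highest summed adipocyte markers of the hearts (38.8). Its hepatocyte markers were high, as were those of heart BPH replicate 1 and BPN replicate 1.

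As a signed value the BPL minus BPH difference was higher in liver than in another tissue, by the interaction in the joint limma fit, by the following log2 amounts. Against heart it was higher by 0.69 for Hmgcs1 and by 3.66 for Hsd17b7, whose gap was the wider one in heart (-3.40, with 0.25 in liver). Against kidney it was higher by 0.59 for Mvd, 0.90 for Hmgcs1, 0.54 for Pmvk and 1.13 for Cyp51. Against aorta it was higher by 0.82 for Hmgcs1, 0.50 for Fdps, 0.75 for Sqle, 0.76 for Idi1 and 1.01 for Cyp51.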

How the results depend on the processing

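Of the 96 tests of the 8 genes on their main probe sets, 32 were called, and 21 of these kept their call in every alternative and without any 1 array; none changed direction. The 5 liver calls of BPL against BPH kept theirs throughout, and Fdps (BPH against BPN) and Cyp51 (BPL against BPN) lost theirs only in the joint fit. Among the counts, other pathway genes called in liver between BPH and BPN were 2, but 4 with a pseudocount of 16, with brighter probe sets only and with trend and robust variance, and 1 in the joint fit. Heart calls between BPL and BPN fell from 1 to 0 with median centring and in the joint fit, and those between BPH and BPN went from 1 to 2 with a pseudocount of 16, brighter probe sets only and array weights. In the joint fit, kidney BPL against BPH gave 1 (3 in the fit of the tissue), aorta BPL against BPH 5 (1) and aorta BPH against BPN 3 (1). Without the 2 marker-bearing aortas, BPL against BPH gave 0 on main probe sets. The count of signed differences higher in liver than in kidney was 2 with median centring (4), and that against heart 5 with array weights (2). The causes were not tested.

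Leaving out 1 array at a time, calls ranged in liver from 5 to 6 (BPL against BPH), stayed at 4 (BPH against BPN) and ranged from 3 to 4 (BPL against BPN); for other pathway genes from 6 to 8, 1 to 3 and 6 to 10. In the same order they ranged in heart from 1 to 1, 1 to 2 and 0 to 1, in kidney from 2 to 3, 4 to 5 and 3 to 4, and in aorta from 0 to 2, 1 to 2 and 1 to 4. Counts of signed differences higher in liver ranged from 2 to 3 against heart, 2 to 5 against kidney and 4 to 6 against aorta. Hsd17b7 in kidney, Cyp51 in heart, and Pmvk and Sqle in aorta each lost a call without several single arrays, Cyp51 in aorta without BPN replicate 14 and Hsd17b7 in aorta without BPH replicate 10.

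Same-numbered arrays of different strains did not deviate together: 8 of 43 pairs correlated above 0.1 (range -0.29 to 0.28), so the numbers were not taken as pairs. With the number as a replicate block the liver counts were 5, 4 and 3, and 1 member call was lost (Mvd, kidney, BPL against BPN). In aorta the strains share fewer than 2 numbers.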
